A study of Mus musculus with 36 samples.

Results

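Oxidative phosphorylation (OXPHOS) makes most of the ATP of a respiring cell in the inner membrane of mitochondria. Complex I takes electrons from NADH and complex II takes them from succinate, complex III passes them on to cytochrome c, complex IV passes them to oxygen, and complex V, the ATP synthase, uses the proton gradient that complexes I, III and IV build. Macrophages and T cells are known to shift between this pathway and glycolysis with their state of activation. Most subunits are encoded in the nucleus, and the genes described here are the nuclear ones. They were chosen by gene name: *Nduf* with a, b, c, s or v and a digit for complex I, *Sdha* to *Sdhd* for complex II, *Uqcr* genes and *Cyc1* for complex III, *Cox4* to *Cox8* with a letter for complex IV, and *Atp5* genes for complex V. The rule found 84 of the 24781 genes in the table, 37 for complex I, 4 for complex II, 9 for complex III, 18 for complex IV and 16 for complex V. The table has 0 genes encoded on mitochondrial DNA, so the subunits made inside mitochondria could not be counted.

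The data are 36 libraries of 100 sorted cells each, 18 of tumour-associated macrophages (TAMs, CD45.2+CD11b+F4/80 hi) and 18 of CD8+ T cells (CD45.2+TCRβ+CD8+), from MC38 colon adenocarcinomas grown intradermally in mice for 7 days. In each cell type there were 6 WT mice with placebo, 6 *muMt*-/- mice with placebo and 6 *muMt*-/- mice with a GABA pellet. The *muMt*-/- mice carry a disrupted *Ighm* gene (not analysed here) in every cell and lack mature B cells, and were C57BL/6J. WT mice were C57BL/6J or C57BL/6N. The mice were 2 to 5 months old, of both sexes, matched for age and sex. For the placebo groups the sample labels give no treatment, where the paper gives placebo. Molecules were barcoded before amplification, so the counts are of molecules and not of copies.

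In molecules, TAM libraries held 206394 to 304100.0 (median 242756) in WT, 100254 to 253608 (median 149960.0) in *muMt*-/- and 151856 to 262606 (median 192775) in GABA-treated *muMt*-/- libraries. CD8+ T cell libraries held 22896 to 76898 (median 42066) in WT, 51064 to 77839 (median 67122) in *muMt*-/- and 65356 to 98015 (median 80283) in GABA-treated *muMt*-/- libraries. In median, TAM libraries were deeper in WT than in *muMt*-/- mice and CD8+ libraries were shallowest in WT mice, and the ranges overlapped. Of these molecules, 2876 to 4560.0 (median 3629) in WT, 1112 to 3063 (median 1658) in *muMt*-/- and 1557 to 3868 (median 2928) in GABA-treated *muMt*-/- libraries came from the 84 OXPHOS genes in TAMs. In CD8+ T cells the number was 309 to 1289 (median 590.5) in WT, 710.0 to 1265 (median 1154) in *muMt*-/- and 925 to 1836 (median 1289) in GABA-treated *muMt*-/- libraries. The cell types matched their labels, with all 15 macrophage markers called higher and all 12 CD8+ T cell markers called lower in WT TAMs than in WT CD8+ T cells. All 15 macrophage markers had molecules in TAMs, with *Ctss* most abundant at 13949 molecules over the 18 libraries, and all 12 CD8+ T cell markers had molecules in CD8+ libraries, with *Thy1* most abundant at 1182.

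RNA of other cell types was also looked for. Among B cell markers *Cd79a*, *Blk* and *Pax5* were at 0 in both cell types and *Ms4a1* in CD8+ T cells, and *Cd79b*, the most abundant, had 19 molecules in TAMs and 5 in CD8+ T cells. Of 6 markers of tumour epithelium, *Cldn4*, *Krt18* and *Krt19* were at 0 in both, *Epcam* in TAMs and *Krt8* in CD8+ T cells, and *Cdh1* was the most abundant, with 237 molecules in TAMs and 34 in CD8+ T cells. All 8 stroma markers were found in both, with *Col3a1* most abundant (1826 and 381). Neutrophil markers were led by *Csf3r* in TAMs (118) and *S100a8* in CD8+ T cells (31), dendritic cell markers by *Clec9a* in TAMs (31) and *Ccr7* in CD8+ T cells (291), and NK cell markers by *Eomes* (6 and 50). T cell markers in TAMs were led by *Thy1* with 24 molecules, and macrophage markers in CD8+ T cells by *Ctss* with 723.

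Levels are normalized numbers of molecules, scaled by size factors over the 18 libraries of a cell type, so a level in TAMs is not on the scale of a level in CD8+ T cells. A gene was tested when its mean level was above 1. In each cell type 75 of the 84 genes were tested, 36 of complex I, 4 of II, 9 of III, 11 of IV and 15 of V. The 9 genes left untested were the same in both cell types, and most are tissue-specific isoforms. *Cox7b2*, *Cox8b* and *Cox8c* had 0 molecules in all 36 libraries. *Cox7a1*, the muscle form of subunit VIIa, had 17 molecules in TAMs and 1 in CD8+ T cells. *Cox6a2*, the muscle form of subunit VIa, had 13 and 8, and *Cox6b2*, a testis form, had 3 and 2. *Cox4i2*, the alternative form of subunit IV, had 13 and 0, *Ndufa4l2* had 3 and 0, and *Atp5s* had 6 and 3. The widely expressed isoforms *Cox4i1*, *Cox6a1*, *Cox6b1*, *Cox7a2*, *Cox7a2l*, *Cox8a* and *Ndufa4* were all tested.

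The subunits of 1 complex differed widely in level per kilobase of their longest coding transcript, which is a description only, since cDNA was primed at the poly(A) end. In complex I the highest mean level per kilobase was that of *Ndufa3*, an accessory subunit, with 74.7 in TAMs and 28.01 in CD8+ T cells. The lowest among tested genes was that of *Ndufs1*, a core iron-sulphur subunit, with 2.05 and 0.575. In complex II *Sdhb*, the iron-sulphur subunit, was highest (26.1 and 8.15), while the lowest was the flavoprotein *Sdha* in TAMs (6.09) and the membrane anchor *Sdhc* in CD8+ T cells (1.83). The order in complex II therefore differed in its last place. In complex III the highest was *Uqcrb* in TAMs (84.8) and the hinge protein *Uqcrh* in CD8+ T cells (44.4), and the core protein *Uqcrc1* was lowest in both (10.8 and 3.82). In complex IV *Cox8a* was highest (186 and 64.7) and *Cox7a2l*, a factor of respiratory supercomplexes, lowest among tested genes (30.6 and 9.91). Both cell types thus had the same ends of the order in complexes I, IV and V.

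In complex V the highest was *Atp5e*, of the central stalk (141 per kilobase in TAMs and 59.5 in CD8+ T cells), and the lowest among tested genes was *Atp5g1* (5.24 and 1.92). *Atp5g1*, *Atp5g2* and *Atp5g3* encode the same mature protein, subunit c of the membrane ring. Per kilobase their order was shared by TAMs and CD8+ T cells, *Atp5g3* first (124 in TAMs and 43.4 in CD8+ T cells), then *Atp5g2* (76.1 and 30.8), then *Atp5g1*, whose longest transcript has 4715 bases.

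All 84 genes together made up 1.39 to 1.65 (median 1.51) percent of the molecules of WT TAM libraries, 0.909 to 1.25 (median 1.19) percent in *muMt*-/- and 1.03 to 1.57 (median 1.502) percent in GABA-treated *muMt*-/- libraries. All 6 *muMt*-/- libraries lay below all 6 WT libraries, and 5 of the 6 libraries with GABA lay above all *muMt*-/- libraries. In bulk libraries like these, fewer cells of a type that expresses the genes and less RNA per cell cannot be told apart. In CD8+ T cells the share was 1.19 to 1.68 (median 1.44) percent in WT, 1.12 to 1.74 (median 1.61) percent in *muMt*-/- and 1.33 to 2.04 (median 1.7) percent in GABA-treated *muMt*-/- libraries. These 3 groups overlapped throughout. The ratio of the medians of *muMt*-/- to WT was 0.787 for TAMs and 1.11 for CD8+ T cells.

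By complex, TAMs of *muMt*-/- mice lay below WT without overlap in complexes I, IV and V. The share of complex I was 0.380 to 0.445 (median 0.425) in WT, 0.278 to 0.358 (median 0.328) in *muMt*-/- and 0.317 to 0.449 (median 0.409) in GABA-treated *muMt*-/- libraries, in percent of molecules. Complex IV took 0.369 to 0.445 (median 0.412) in WT, 0.247 to 0.336 (median 0.318) in *muMt*-/- and 0.262 to 0.416 (median 0.399) in GABA-treated *muMt*-/- libraries. Complex V took 0.439 to 0.542 (median 0.480) in WT, 0.253 to 0.395 (median 0.357) in *muMt*-/- and 0.299 to 0.535 (median 0.468) in GABA-treated *muMt*-/- libraries. In each of these 3 complexes 5 of the 6 libraries with GABA lay above all *muMt*-/- libraries, and the lowest library with GABA was replicate 1. For complex II the values were 0.0493 to 0.0601 (median 0.0536) in WT, 0.0357 to 0.0549 (median 0.0448) in *muMt*-/- and 0.0310 to 0.0548 (median 0.0517) in GABA-treated *muMt*-/- libraries, and for complex III 0.134 to 0.180 (median 0.152) in WT, 0.0955 to 0.141 (median 0.125) in *muMt*-/- and 0.117 to 0.162 (median 0.151) in GABA-treated *muMt*-/- libraries. In both complexes 5 of 6 *muMt*-/- libraries lay below all WT libraries and 1 overlapped.

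In CD8+ T cells no complex separated the groups. Complex I took 0.324 to 0.464 (median 0.391) in WT, 0.331 to 0.523 (median 0.429) in *muMt*-/- and 0.396 to 0.597 (median 0.450) in GABA-treated *muMt*-/- libraries, in percent of molecules. Complex II took 0.0356 to 0.0578 (median 0.0454) in WT, 0.0313 to 0.0549 (median 0.0371) in *muMt*-/- and 0.0420 to 0.0651 (median 0.0528) in GABA-treated *muMt*-/- libraries. Complex III took 0.135 to 0.204 (median 0.170) in WT, 0.110 to 0.186 (median 0.168) in *muMt*-/- and 0.122 to 0.213 (median 0.195) in GABA-treated *muMt*-/- libraries. In complexes II and III the *muMt*-/- group had the lowest median of the 3 groups. In complex II 3 of the *muMt*-/- libraries lay below all WT libraries. Complex IV took 0.253 to 0.399 (median 0.344) in WT, 0.294 to 0.437 (median 0.403) in *muMt*-/- and 0.335 to 0.490 (median 0.422) in GABA-treated *muMt*-/- libraries, and complex V 0.417 to 0.564 (median 0.518) in WT, 0.349 to 0.597 (median 0.555) in *muMt*-/- and 0.398 to 0.693 (median 0.560) in GABA-treated *muMt*-/- libraries. In these 2 complexes, as in complex I, the medians were lowest in WT. Replicate 1 of the *muMt*-/- group was the lowest of its group for the share of all 84 genes, 1.12 percent.

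**Figure D1:**
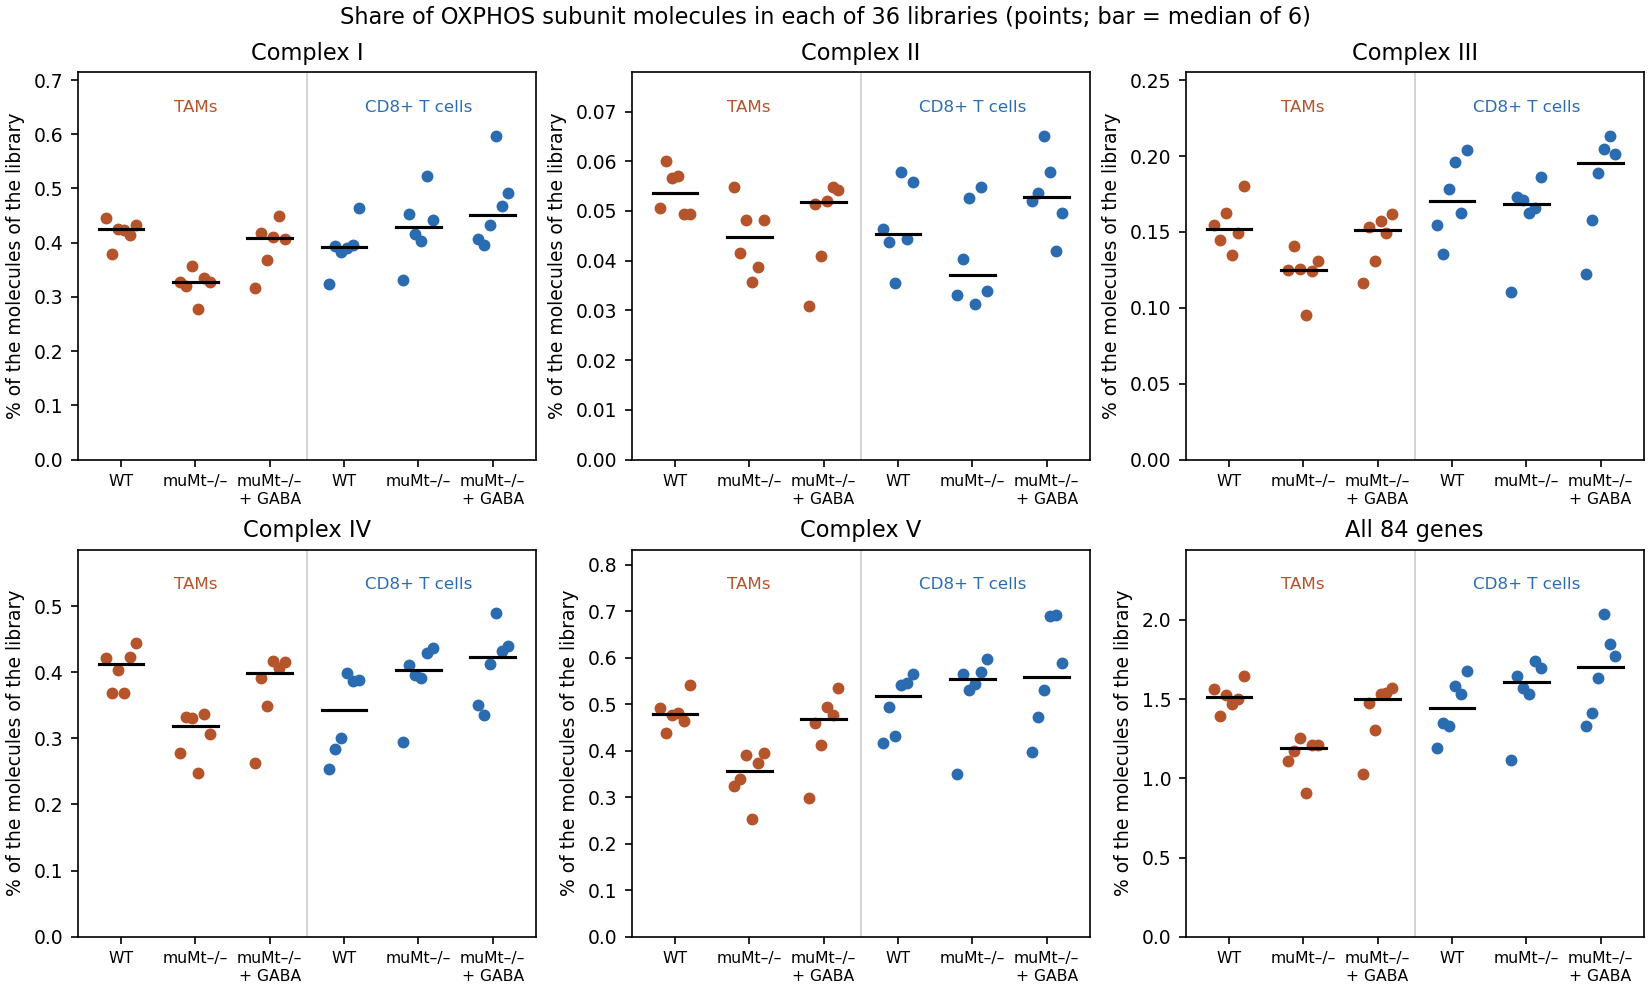
Share of the molecules of each library (percent, vertical axis) that came from the genes of each OXPHOS complex, for 6 libraries per group (points, bar at the median), TAMs left and CD8+ T cells right. For all 84 genes the *muMt*-/- TAM libraries lie between 0.909 and 1.25 percent, below all WT TAM libraries, while the groups of CD8+ T cells overlap.

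The mix of complexes overlapped between the groups in both cell types. Among the molecules of the 84 genes in TAMs, complex I made up 26.2 to 28.9 (median 27.7) in WT, 27.1 to 30.6 (median 28.1) in *muMt*-/- and 25.8 to 30.9 (median 28.3) in GABA-treated *muMt*-/- libraries, in percent. Complex V made up 31.01 to 32.9 (median 31.5) in WT, 27.8 to 32.7 (median 30.1) in *muMt*-/- and 29.2 to 34.01 (median 31.4) in GABA-treated *muMt*-/- libraries. All 3 groups overlapped in both. In CD8+ T cells complex I made up 24.6 to 29.1 (median 27.4) in WT, 26.04 to 29.99 (median 27.1) in *muMt*-/- and 25.3 to 30.5 (median 27.9) in GABA-treated *muMt*-/- libraries. Complex V made up 32.4 to 36.6 (median 34.6) in WT, 31.3 to 35.5 (median 34.2) in *muMt*-/- and 29.9 to 37.5 (median 33.3) in GABA-treated *muMt*-/- libraries. These groups overlapped too. In the same cells complex IV made up 21.04 to 25.2 (median 22.9) in WT, 24.6 to 26.3 (median 25.4) in *muMt*-/- and 23.4 to 26.4 (median 24.4) in GABA-treated *muMt*-/- libraries, with 4 of 6 WT libraries below all *muMt*-/- libraries. For complex III the values were 10.03 to 13.4 (median 12.3) in WT, 9.53 to 10.98 (median 10.6) in *muMt*-/- and 9.21 to 11.6 (median 11.3) in GABA-treated *muMt*-/- libraries, with 4 of 6 WT libraries above all *muMt*-/- libraries.

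The first comparison asks what the lack of B cells went with in TAMs. OXPHOS genes were lower in TAMs of *muMt*-/- than of WT mice, and the genes that passed the test were in complexes I, III, IV and V. In edgeR 9 of the 75 tested genes had an adjusted p under 0.05, all lower (12%), against 1.02 percent of all 9469 genes tested that were called lower. At an unadjusted p under 0.05, 30 of 75 were lower (40.0%), against 8.15 percent of all genes, and 1 was higher, *Uqcrb*. Each *muMt*-/- library lay below each WT library for 7 of the 75 genes (9.33%), among them *Atp5b*, *Atp5e*, *Atp5g1*, *Atp5g2*, *Atp5j2* and *Cox5b*, against 1.33 percent of all genes. The median log2 fold change of the 75 genes was -0.34, with 66 lower and 9 higher, and that of all genes tested was -0.05. With DESeq2 size factors the medians were -0.31 and -0.03, and with total molecules -0.38 and -0.09, and under all 3 scalings the median of each complex was negative and below that of all genes.

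The calls were mostly in a list of OXPHOS genes already published for TAMs. Of its 25 genes 8 were called lower, and their median was -0.61, but the list was picked on the same libraries, so this count is not independent evidence. Of the 50 tested genes outside the list 1 was called lower (2.0%), *Cox5b*. They are what that choice left over, so their values are not independent of it either. These 50 genes had a median of -0.20, with 42 lower and 8 higher, and 6 were lower at an unadjusted p under 0.05 (12%).

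In complex I, 3 of 36 tested genes fell, 29 were lower in value and the median was -0.33. *Ndufa7*, an accessory subunit (chr17:33824572-33838316, mm10), had levels of 22.1 to 39.5 (median 33.4) in WT, 12.6 to 26.1 (median 17.2) in *muMt*-/- and 11.9 to 34.9 (median 25.5) in GABA-treated *muMt*-/- libraries. There 5 of 6 *muMt*-/- libraries lay below all WT libraries, and the highest overlapped. Its log2 fold change was -0.82 ± 0.22 (SE; adjusted p 0.0401). *Ndufa3*, also an accessory subunit (chr7:3617347-3620165), stood at 40.6 to 59.2 (median 47.5) in WT, 18.8 to 42.4 (median 24.9) in *muMt*-/- and 19.9 to 46.3 (median 41.6) in GABA-treated *muMt*-/- libraries. Again 5 of 6 *muMt*-/- libraries were below all WT libraries, and the log2 fold change was -0.76 ± 0.21 (SE; adjusted p 0.0369).

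Other complex I genes did not pass the test. *Ndufb2*, an accessory subunit, had levels of 15.8 to 23.2 (median 21.4) in WT, 6.22 to 20.7 (median 12.2) in *muMt*-/- and 15.2 to 21.1 (median 17.4) in GABA-treated *muMt*-/- libraries. In 5 of 6 *muMt*-/- libraries it was below all WT libraries, with a log2 fold change of -0.74 ± 0.22 (SE; adjusted p 0.0652). *Ndufb6*, another accessory subunit, had 19.4 to 39.2 (median 27.7) in WT, 13.8 to 26.4 (median 15.8) in *muMt*-/- and 18.3 to 32.2 (median 25.8) in GABA-treated *muMt*-/- libraries, and 4 *muMt*-/- libraries lay below all WT libraries. Its log2 fold change was -0.71 ± 0.21 (SE; adjusted p 0.0686). The scarce *Ndufs1*, at 2.18 to 9.23 (median 7.58) in WT and 1.57 to 9.32 (median 3.13) in *muMt*-/- libraries, had the lowest fold change of the complex, -1.01 ± 0.45 (SE; adjusted p 0.277), and its groups overlapped. At the other end of the complex was a log2 fold change of 0.12.

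No gene of complex II passed the test in edgeR, and 1 of 4 was lower at an unadjusted p under 0.05. That was *Sdha*, whose level was 17.4 to 29.2 (median 19.9) in WT, 11.98 to 28.3 (median 14.5) in *muMt*-/- and 8.13 to 22.4 (median 16.3) in GABA-treated *muMt*-/- libraries. In 5 of 6 *muMt*-/- libraries it was below all WT libraries, the highest *muMt*-/- library lay within the WT range, and the log2 fold change was -0.48 ± 0.23 (SE; adjusted p 0.333). *Sdhb* had 21.8 to 45.2 (median 30.8) in WT, 22.3 to 33.9 (median 27.3) in *muMt*-/- and 21.2 to 38.3 (median 30.2) in GABA-treated *muMt*-/- libraries. The membrane anchor *Sdhd* had 19.7 to 26.9 (median 23.4) in WT, 16.7 to 23.97 (median 20.1) in *muMt*-/- and 14.2 to 25.2 (median 20.8) in GABA-treated *muMt*-/- libraries, and the other anchor, *Sdhc*, had 19.6 to 30.8 (median 24.3) in WT, 17.2 to 27.7 (median 20.4) in *muMt*-/- and 11.9 to 30.5 (median 24.98) in GABA-treated *muMt*-/- libraries. These 3 genes overlapped between groups, with log2 fold changes from -0.22 (*Sdhd*) to -0.17 (*Sdhc*). The median of complex II, -0.21, was the smallest shift of the 5 complexes.

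In complex III, 2 of 9 genes fell and 1 pointed the other way. *Uqcr10*, a small subunit (chr11:4701968-4704344), had levels of 23.9 to 37.8 (median 32.5) in WT, 15.1 to 29.5 (median 16.1) in *muMt*-/- and 11.9 to 30.7 (median 21.6) in GABA-treated *muMt*-/- libraries. In 5 of 6 *muMt*-/- libraries it was below all WT libraries, and replicate 6 was above the rest of its group. The log2 fold change was -0.81 ± 0.21 (SE; adjusted p 0.0317). *Uqcrq*, another small subunit (chr11:53427922-53430831), had 27.6 to 58.8 (median 43.97) in WT, 16.7 to 30.1 (median 26.5) in *muMt*-/- and 11.9 to 39.9 (median 36.3) in GABA-treated *muMt*-/- libraries, and 4 of 6 *muMt*-/- libraries were below all WT libraries. Its log2 fold change was -0.77 ± 0.22 (SE; adjusted p 0.0493), close to the threshold. *Uqcrb*, a small subunit of the published list, had 29.1 to 44.3 (median 38.2) in WT, 38.8 to 59.7 (median 52.6) in *muMt*-/- and 41.6 to 55.5 (median 44.8) in GABA-treated *muMt*-/- libraries. Here 5 of 6 *muMt*-/- libraries were above all WT libraries, with a log2 fold change of 0.44 ± 0.16 (SE; adjusted p 0.148), which did not pass the test here but did with another filter. *Uqcrc1* (-0.56 ± 0.22 SE, adjusted p 0.210), *Cyc1*, which carries the haem of cytochrome c1 (-0.38 ± 0.19 SE, adjusted p 0.345), and *Uqcrh* (-0.33 ± 0.16 SE, adjusted p 0.334) were lower without passing it.

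In complex IV all 11 tested genes were lower in value with TMM and total molecules, and 10 with DESeq2 size factors, and 1 passed the test. *Cox5b*, a zinc-binding subunit on the matrix side (chr1:36691487-36693388), had levels of 56.3 to 71.6 (median 59.6) in WT, 13.9 to 41.96 (median 30.01) in *muMt*-/- and 14.6 to 52.4 (median 41.7) in GABA-treated *muMt*-/- libraries. All 6 *muMt*-/- libraries and also all 6 libraries with GABA were below all WT libraries. Its log2 fold change between *muMt*-/- and WT was -1.08 ± 0.21 (SE; adjusted p 0.00363), the largest fall of the 75 genes. *Cox8a* had 102 to 137 (median 116) in WT, 54.4 to 106 (median 87.8) in *muMt*-/- and 54.4 to 129.9 (median 112) in GABA-treated *muMt*-/- libraries, with 5 of 6 *muMt*-/- libraries below all WT libraries and a log2 fold change of -0.54 ± 0.18 (SE; adjusted p 0.110). *Cox7a2* (-0.44 ± 0.19 SE, adjusted p 0.257), *Cox6c* (-0.37 ± 0.21 SE, adjusted p 0.416) and *Cox7a2l* (-0.37 ± 0.21 SE, adjusted p 0.422) were lower without passing the test. *Cox5a*, the partner subunit of similar name, was at 52.3 to 64.6 (median 62.1) in WT and 34.2 to 66.6 (median 56.5) in *muMt*-/- libraries and its groups overlapped (-0.21 ± 0.16 SE, adjusted p 0.607). *Cox4i1*, at 57.1 to 69.5 (median 65.9) in WT and 50.7 to 99.02 (median 61.8) in *muMt*-/- libraries, and *Cox6a1*, at 66.9 to 90.4 (median 76.6) in WT and 55.9 to 91.6 (median 74.4) in *muMt*-/- libraries, had log2 fold changes of 0.00 and -0.04. The complex therefore ran from a clear fall of *Cox5b* to genes near 0.

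Complex V had the largest median shift, -0.55, with 14 of 15 genes lower and 3 called. *Atp5g1* (chr11:96072793-96075694) had levels of 29.5 to 39.5 (median 32.7) in WT, 9.76 to 29.5 (median 13.3) in *muMt*-/- and 6.64 to 32.04 (median 23.8) in GABA-treated *muMt*-/- libraries. All 6 *muMt*-/- libraries were at or below the lowest WT library, the highest of them only just, and the log2 fold change was -0.96 ± 0.26 (SE; adjusted p 0.0365). *Atp5g2* (chr15:102662868-102671047) had 57.4 to 68.4 (median 67.6) in WT, 32.4 to 51.7 (median 41.9) in *muMt*-/- and 43.8 to 85.6 (median 63.4) in GABA-treated *muMt*-/- libraries, and all 6 *muMt*-/- libraries were below all WT libraries. The log2 fold change was -0.64 ± 0.17 (SE; adjusted p 0.0308). The third gene for subunit c, *Atp5g3*, had 77.5 to 121 (median 94.98) in WT, 66.9 to 92.4 (median 75.3) in *muMt*-/- and 91.6 to 109 (median 94.6) in GABA-treated *muMt*-/- libraries. Its groups overlapped and its log2 fold change was smaller, -0.31 ± 0.15 (SE; adjusted p 0.306). *Atp5d*, of the central stalk (chr10:80138698-80145828), had 37.9 to 52.9 (median 43.99) in WT, 11.2 to 38.4 (median 23.9) in *muMt*-/- and 22.6 to 52.4 (median 37.9) in GABA-treated *muMt*-/- libraries. In 5 of 6 *muMt*-/- libraries it was below all WT libraries, with a log2 fold change of -0.85 ± 0.23 (SE; adjusted p 0.0354).

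Genes of other parts of the ATP synthase were lower in value without passing the test. *Atp5o*, which joins the catalytic head to the peripheral stalk, came closest, at -0.76 ± 0.22 (SE; adjusted p 0.0515) in log2 fold change. *Atp5e* had 64.7 to 79.7 (median 68.7) in WT, 37.7 to 59.9 (median 44.3) in *muMt*-/- and 25.2 to 86.4 (median 64.5) in GABA-treated *muMt*-/- libraries, and all 6 *muMt*-/- libraries were below all WT libraries. Its log2 fold change was -0.56 ± 0.19 (SE; adjusted p 0.122). *Atp5j*, of the peripheral stalk, had 40.1 to 57.1 (median 49.6) in WT, 18.1 to 43.5 (median 33.96) in *muMt*-/- and 25.2 to 64.1 (median 49.04) in GABA-treated *muMt*-/- libraries, with 5 of 6 *muMt*-/- libraries below all WT libraries and a log2 fold change of -0.61 ± 0.21 (SE; adjusted p 0.120). Of the catalytic head, the beta subunit *Atp5b* had 109.8 to 130.2 (median 114) in WT, 55.8 to 104 (median 80.5) in *muMt*-/- and 47.8 to 125 (median 109) in GABA-treated *muMt*-/- libraries, without overlap between *muMt*-/- and WT (-0.55 ± 0.18 SE, adjusted p 0.104). The alpha subunit *Atp5a1* had 60.9 to 93.04 (median 76.7) in WT and 48.8 to 78.3 (median 66) in *muMt*-/- libraries, with overlap (-0.29 ± 0.16 SE, adjusted p 0.385), and *Atp5h* of the peripheral stalk also overlapped (-0.30 ± 0.18 SE, adjusted p 0.446).

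**Figure D2:**
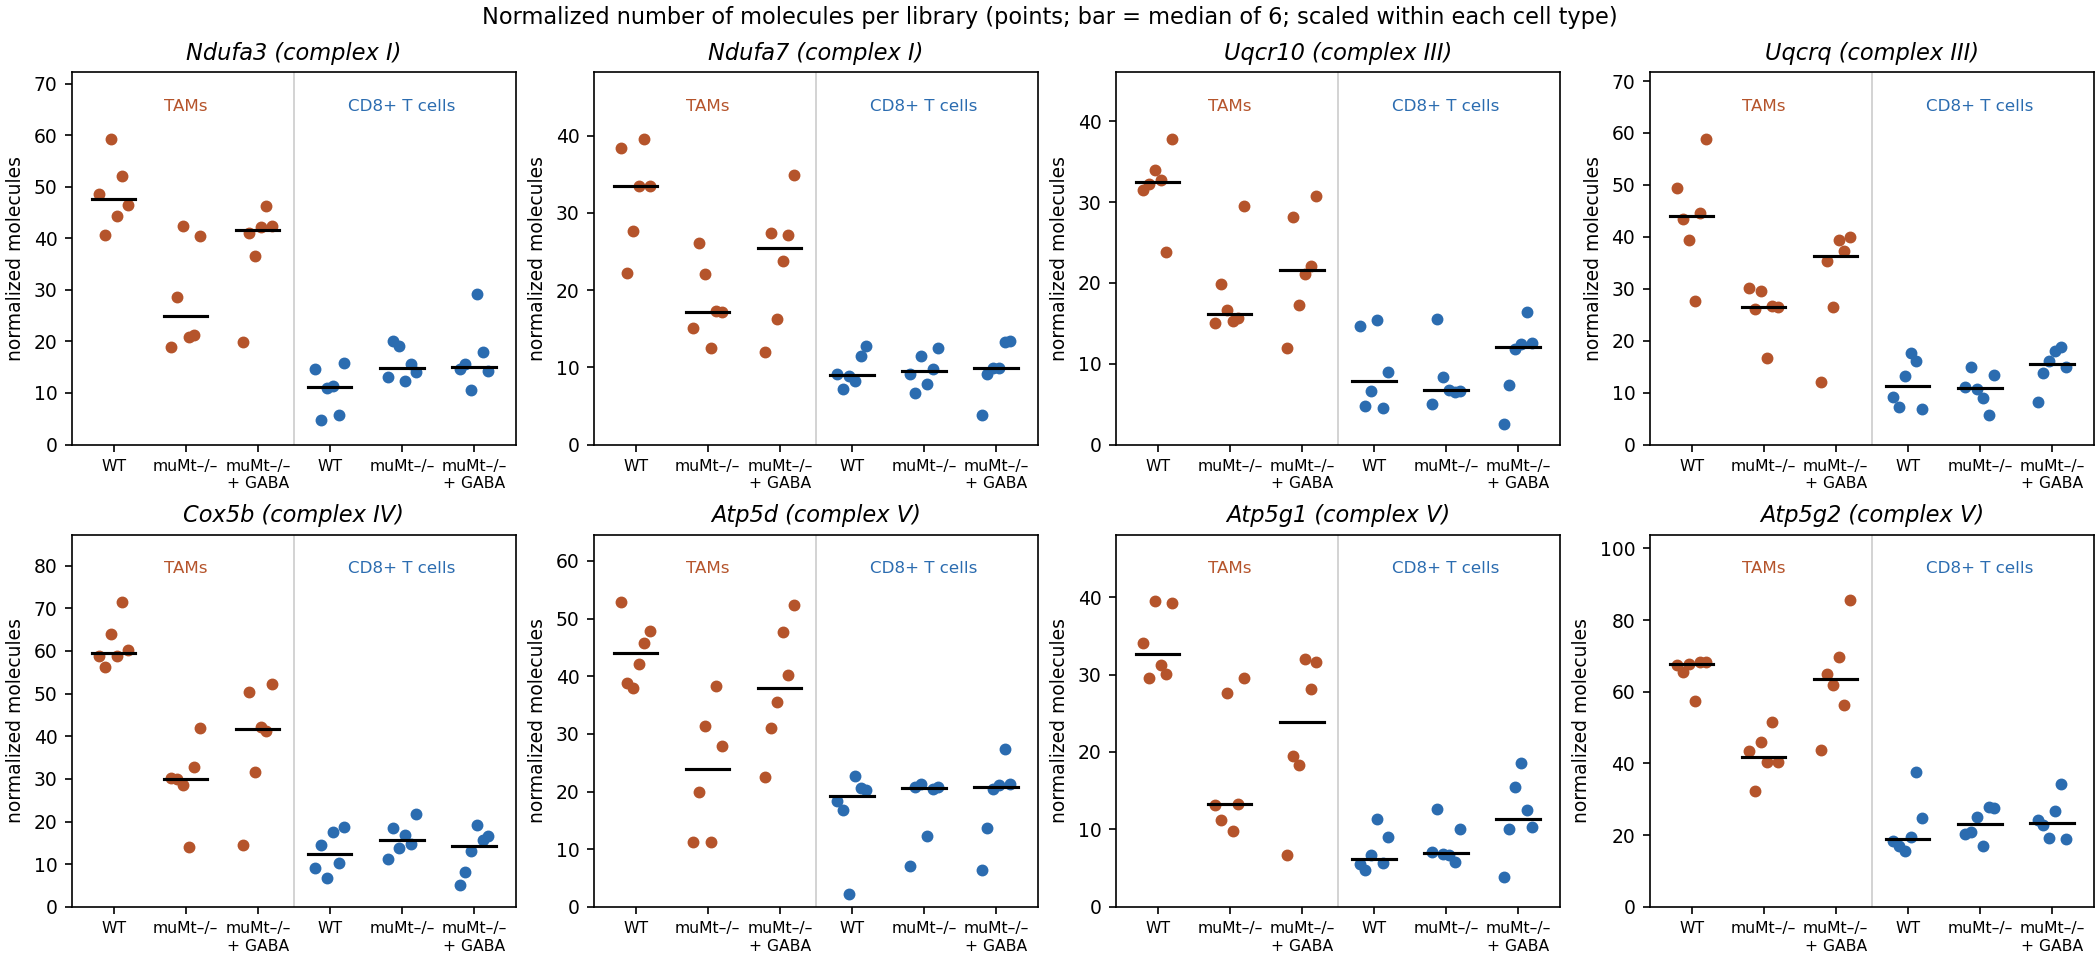
Normalized number of molecules per library (vertical axis, scaled within each cell type) of 8 genes with an adjusted p under 0.05 between *muMt*-/- and WT TAMs, for 6 libraries per group (points, bar at the median). *Cox5b* lies at 56.3 or more in all WT TAM libraries and at 42.0 or less in all *muMt*-/- TAM libraries, and the CD8+ groups of all 8 genes overlap.

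How many genes passed depended on single libraries, and each of the 12 libraries of this comparison, left out, ended the call of at least 1 gene. The calls among all genes are not given for the fits with 1 library left out. Whether the OXPHOS calls moved more than those of all genes was therefore not tested. Without WT replicate 1, WT replicate 6 or *muMt*-/- replicate 4 there was 1 call, *Cox5b*. There were 3 calls without WT replicate 3, WT replicate 5, *muMt*-/- replicate 1 or *muMt*-/- replicate 2, 4 without *muMt*-/- replicate 5, 6 without *muMt*-/- replicate 3, 7 without WT replicate 4 or *muMt*-/- replicate 6, and 8 without WT replicate 2. Without replicate 1 of the GABA group, which shares the fit, there were 16, and without its replicates 2 to 5 there were 8 each. *Cox5b* was called in all 12 fits that lacked a WT or *muMt*-/- library, *Atp5d* in 6, *Atp5g1* and *Atp5g2* in 5 each, *Ndufa3* and *Ndufa7* in 4 each, *Uqcr10* in 2 and *Uqcrq* in 1. When the depth of each library, on the log2 scale, was added to the fit, there were 0 calls among the OXPHOS genes in edgeR and 11 among all genes, and the median of the 75 genes was -0.22. In that fit *Cox5b* stood at -0.78, *Atp5g1* at -0.81, *Uqcr10* at -0.75, *Uqcrq* at -0.58, *Ndufa3* at -0.56, *Ndufa7* at -0.46, *Atp5d* at -0.43 and *Atp5g2* at -0.41 in log2 fold change. DESeq2 gave 10 calls beside 253 of all 9469 genes. At an unadjusted p under 0.05 it gave 27, 1 of them higher, beside 1111 of all genes. With filterByExpr there were 14 calls, 13 lower and *Uqcrb* higher, at a log2 fold change of 0.47. That fit called 295 of all 3853 genes it tested, where the main fit called 194 of 9469.

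Other measures moved with these TAM groups. Nuclear RNA (*Malat1*, *Neat1* and the rest of a list of 5) took 0.318 to 0.388 (median 0.367) in WT, 0.469 to 1.05 (median 0.577) in *muMt*-/- and 0.349 to 0.533 (median 0.388) in GABA-treated *muMt*-/- libraries, in percent of molecules, without overlap between *muMt*-/- and WT. Cytosolic ribosomal protein genes took 10.1 to 11.9 (median 10.3) in WT, 6.46 to 9.06 (median 7.75) in *muMt*-/- and 8.803 to 11.04 (median 9.76) in GABA-treated *muMt*-/- libraries, again with all *muMt*-/- libraries below all WT libraries. Replicate 4 of the *muMt*-/- group had the lowest OXPHOS share (0.909), the lowest ribosomal share and the highest share of nuclear RNA. Depth was added to the fit above, and in that fit no OXPHOS gene was called. Since depth moved with the groups, its part cannot be told apart from that of the groups. The part of nuclear RNA and ribosomal genes in the OXPHOS difference was not tested. Macrophage markers took 1.63 to 2.08 (median 1.91) in WT, 1.35 to 1.72 (median 1.55) in *muMt*-/- and 0.967 to 1.88 (median 1.72) in GABA-treated *muMt*-/- libraries, with overlap of the groups, 3 of 15 called lower (*Lyz2*, *C1qb* and *C1qc*) and 1 higher (*Itgam*). The 6 markers of tumour epithelium took 0.00356 to 0.00511 (median 0.00467) in WT, 0.00583 to 0.0165 (median 0.00801) in *muMt*-/- and 0.00263 to 0.0110 (median 0.00575) in GABA-treated *muMt*-/- libraries, in percent of molecules. All 6 *muMt*-/- libraries lay above all 6 WT libraries, and *Cdh1* was called higher in *muMt*-/- TAMs, at a log2 fold change of 1.11. These values rest mostly on *Cdh1* (237 molecules in TAMs), the only 1 of the 6 markers tested. In TAMs *Cldn4*, *Epcam*, *Krt18* and *Krt19* were at 0, and the sort was for CD45.2+ cells. Whether tumour cells were present, and the part of *Cdh1* RNA in the OXPHOS difference, was not tested. Stroma markers took 0.0105 to 0.535 percent (median 0.0416) in WT and 0.00723 to 0.203 (median 0.0478) in *muMt*-/- libraries, with overlap. WT replicate 6 had the highest stroma share and also the highest OXPHOS share (1.65) of the TAM libraries. The part of stroma RNA in the OXPHOS difference was not tested either.

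The second comparison asks what GABA pellets went with in TAMs of *muMt*-/- mice. OXPHOS genes were higher in value with GABA, but 0 of 75 passed the test in edgeR, where 0.0211 percent of all genes did (2 of 9469). At an unadjusted p under 0.05, 17 were higher (22.7%) and 0 lower, against 5.15 percent of all genes higher. DESeq2 called 60 genes, and *Atp5g2* was the only OXPHOS gene among them. Without adjustment of p, 6 of the 75 genes were under 0.05 in DESeq2, all higher, beside 580 of all 9469 genes. The median of the 75 genes was 0.26, with 71 higher and 4 lower, beside 0.06 for all genes. The medians of complexes I to V were 0.23, 0.10, 0.31, 0.28 and 0.33, positive under all 3 scalings. All 15 genes of complex V and all 11 of complex IV were higher in value than the median of all genes, and 2 of 4 in complex II. This comparison and the first share the 6 *muMt*-/- libraries, so a low *muMt*-/- value moves both.

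*Atp5g2* had the smallest p of the OXPHOS genes with GABA. The levels given above put 5 of 6 libraries with GABA over all *muMt*-/- libraries, and the log2 fold change was 0.61 ± 0.17 (SE; adjusted p 0.196). Without GABA replicate 1 it was 0.69 with an adjusted p of 0.0362, and in DESeq2 0.59 with an adjusted p of 0.0197. *Atp5d* (0.66 ± 0.23 SE, adjusted p 0.341), *Atp5j* (0.60 ± 0.21 SE, adjusted p 0.339) and *Atp5g3* (0.33 ± 0.15 SE, adjusted p 0.546) were higher in value in the same complex. In complex I *Ndufb2* (0.59 ± 0.23 SE, adjusted p 0.432) and *Ndufb6* (0.59 ± 0.22 SE, adjusted p 0.372) had the smallest unadjusted p. In complex III they were *Uqcrc1* (0.53 ± 0.23 SE, adjusted p 0.516) and *Cyc1* (0.43 ± 0.19 SE, adjusted p 0.546). The level of *Cyc1* was 19.6 to 30.5 (median 26.4) in WT, 13.9 to 24.5 (median 20.6) in *muMt*-/- and 24.4 to 29.1 (median 26.1) in GABA-treated *muMt*-/- libraries, and 5 of 6 libraries with GABA were above all *muMt*-/- libraries. *Uqcrc1* had 13.8 to 28.4 (median 20.2) in WT, 10.96 to 18.7 (median 13.9) in *muMt*-/- and 11.9 to 24.1 (median 20.2) in GABA-treated *muMt*-/- libraries, where 4 of 6 were. In complex IV they were *Cox8a* (0.38 ± 0.18 SE, adjusted p 0.589) and *Cox6c* (0.43 ± 0.21 SE, adjusted p 0.589). *Cox6c* had 59.6 to 78.5 (median 68.5) in WT, 29.3 to 77.4 (median 54.6) in *muMt*-/- and 30.5 to 97.2 (median 70.3) in GABA-treated *muMt*-/- libraries, with broad overlap. In complex II they were *Sdhb* and *Sdhc*, close to 0 at 0.14 ± 0.20 (SE; adjusted p 0.901) and 0.14 ± 0.21 (SE; adjusted p 0.907).

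Set against WT, TAMs with GABA had no OXPHOS gene past the test, and their medians lay nearer 0. In edgeR 0 of 75 OXPHOS genes were called, against 0.0739 percent of all genes (7 of 9469), and DESeq2 called 0 among 14 genes. With an unadjusted p under 0.05, 6 were lower (8.0%), against 3.28 percent of all genes lower, and 1 was higher, *Ndufa12*. In DESeq2 5 of 75 passed at an unadjusted p, all lower, beside 440 of all 9469 genes. The median of the 75 was -0.11, with 47 lower and 28 higher, and that of all genes 0.02. *Cox5b* had the lowest value, -0.64 ± 0.20 (SE; adjusted p 0.391), with all 6 libraries below all WT libraries. For *Atp5g2* the difference from WT was -0.03 ± 0.16 (SE; adjusted p 0.985), and for *Uqcr10* -0.50 ± 0.20 (SE; adjusted p 0.568). An adjusted p above the threshold does not show that levels were equal to WT.

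**Figure D3:**
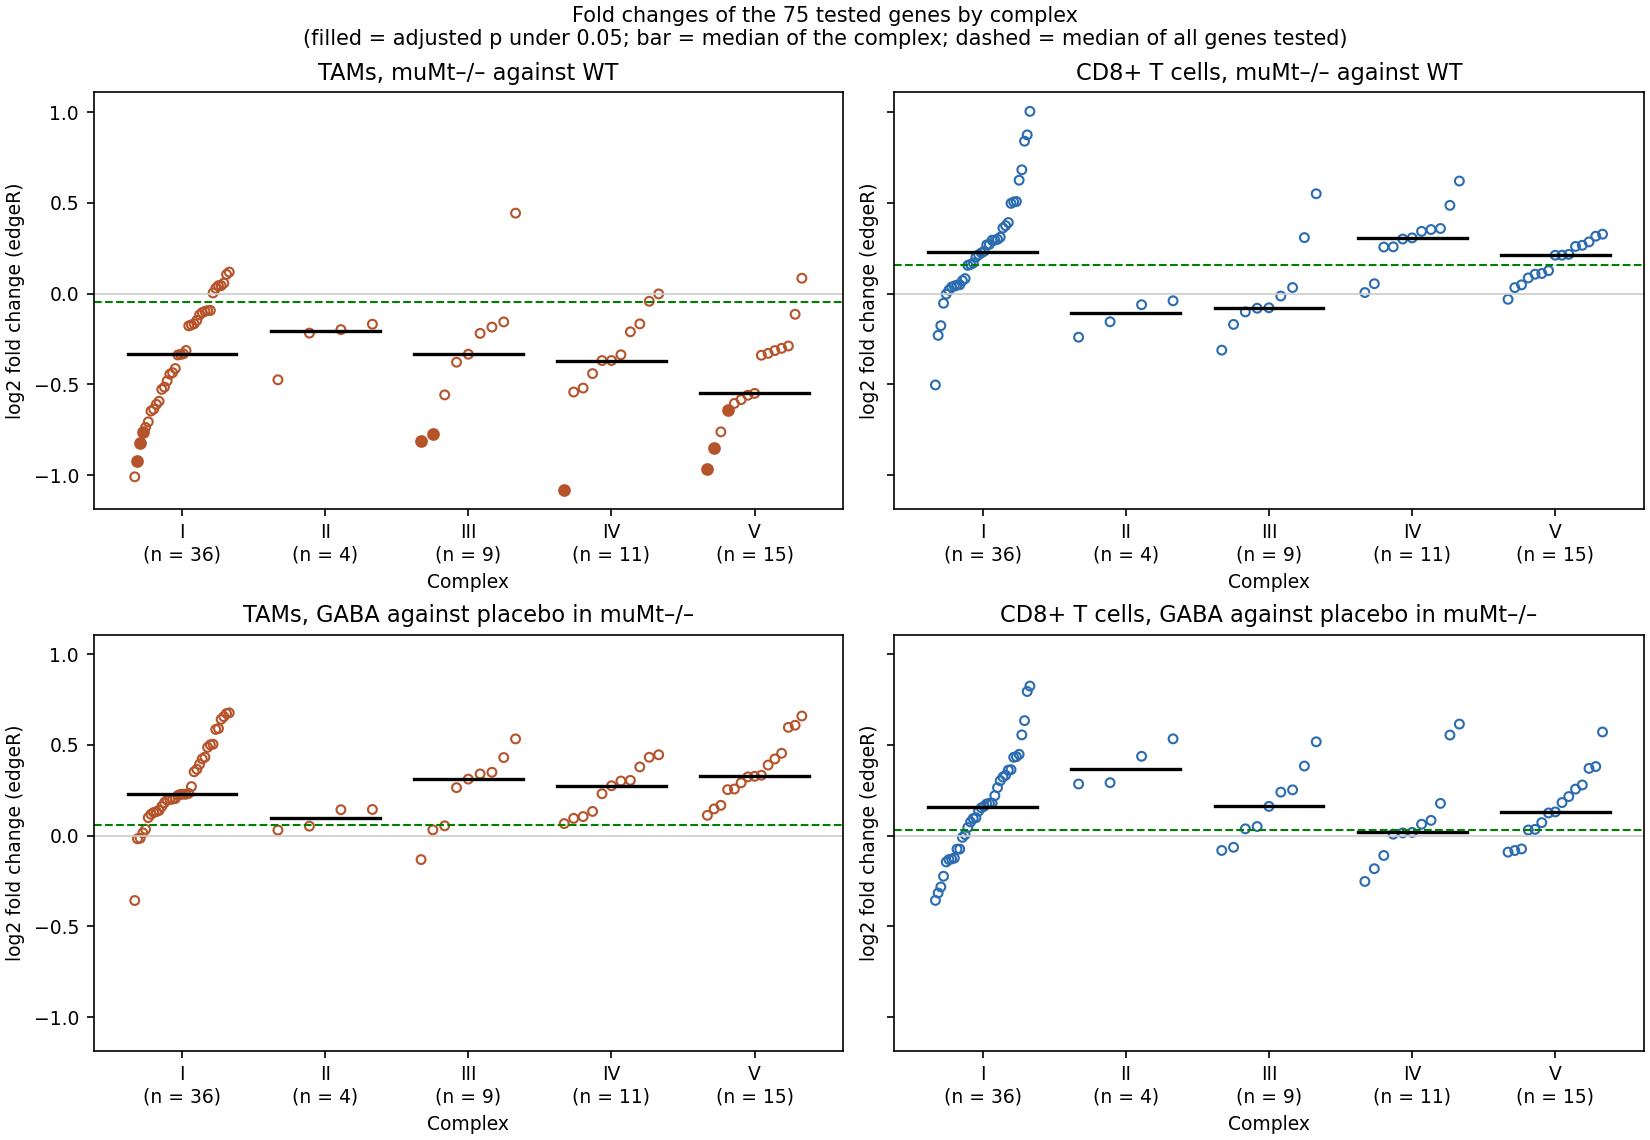
Log2 fold changes from edgeR (vertical axis) of the 75 tested genes by complex, one point per gene, filled where the adjusted p is under 0.05, with the median of each complex (bar) and of all genes tested (dashed). In TAMs of *muMt*-/- against WT mice the complex medians run from -0.21 to -0.55, in CD8+ T cells from -0.11 to 0.31 around a shift of all genes of 0.15.

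In CD8+ T cells the same comparisons gave 0 calls in edgeR, among OXPHOS genes and among all 6663 genes tested (0.0 percent of all genes in each of the 3 comparisons). All genes together were shifted in 2 of them, with medians of 0.15 between *muMt*-/- and WT and 0.21 between GABA and WT, but 0.06 in both with DESeq2 size factors. OXPHOS values are therefore read beside that shift. Between *muMt*-/- and WT the 75 genes had a median of 0.21, and 43 lay above the median of all genes and 32 below. With depth as a covariate that median was 0.02, beside 0.06 for all genes, and thus on the other side of it. Only 2 were higher (2.67%) and 0 lower with an unadjusted p under 0.05, against 5.37 percent of all genes higher, so the share was below the background. DESeq2 called 0 genes, and 222 genes at an unadjusted p included 0 OXPHOS genes. By complex the medians were 0.23 (I), -0.11 (II), -0.08 (III), 0.31 (IV) and 0.21 (V), and relative to all genes complexes II and III were lower and the other 3 higher under all 3 scalings.

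The 2 genes were *Cox7a2* and *Cox6a1*, both of complex IV. *Cox7a2* had levels of 9.17 to 19.5 (median 14.03) in WT, 11.1 to 28.3 (median 20.9) in *muMt*-/- and 12.1 to 23.5 (median 19.1) in GABA-treated *muMt*-/- libraries. Here 5 of 6 *muMt*-/- libraries lay above all WT libraries, with a log2 fold change of 0.62 ± 0.27 (SE; adjusted p 0.728). *Cox6a1* had 13.3 to 27.4 (median 20.6) in WT, 19.3 to 29.97 (median 28.98) in *muMt*-/- and 23.4 to 36.2 (median 28.5) in GABA-treated *muMt*-/- libraries, and 4 *muMt*-/- libraries were above all WT libraries (0.49 ± 0.23 SE, adjusted p 0.762). In complex I *Ndufa3*, lower in *muMt*-/- TAMs, was at 4.81 to 15.8 (median 11.2) in WT, 12.3 to 20.1 (median 14.8) in *muMt*-/- and 10.5 to 29.1 (median 15.1) in GABA-treated *muMt*-/- libraries. Its log2 fold change in CD8+ T cells was 0.62 ± 0.31 (SE; adjusted p 0.811), and that of *Ndufc1*, an accessory subunit, was 0.87 ± 0.46 (SE; adjusted p 0.847). *Ndufc1* had 0 to 6.76 (median 2.82) in WT, 2.23 to 8.996 (median 5.84) in *muMt*-/- and 3.904 to 10.1 (median 8.06) in GABA-treated *muMt*-/- libraries, few molecules with overlap. In complex III *Uqcrb* was at 0.55 ± 0.30 (SE; adjusted p 0.850) and *Cyc1* at -0.31 ± 0.30 (SE; adjusted p 0.957), and in complex II *Sdha* at -0.24 ± 0.42 (SE; adjusted p 0.980) and *Sdhd* at -0.16 ± 0.39 (SE; adjusted p 0.996). In complex V *Atp5g3* (0.32 ± 0.24 SE, adjusted p 0.940) and *Atp5a1* (0.27 ± 0.23 SE, adjusted p 0.955) had the smallest unadjusted p. *Cox5b*, which fell in TAMs, was at 6.63 to 18.8 (median 12.4) in WT, 11.1 to 21.6 (median 15.8) in *muMt*-/- and 5.08 to 19.2 (median 14.3) in GABA-treated *muMt*-/- libraries in CD8+ T cells, with overlap of all groups.

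With GABA against placebo in *muMt*-/- CD8+ T cells, 4 OXPHOS genes were higher at an unadjusted p under 0.05 (5.33%) and 0 lower, against 2.01 percent of all genes higher. DESeq2 gave 0 calls, and at an unadjusted p 2 of 75 OXPHOS genes beside 133 of all 6663 genes. The median was 0.15 beside 0.03. *Cox4i1*, of complex IV, had levels of 1.83 to 19.9 (median 17.6) in WT, 16.8 to 21.3 (median 17.3) in *muMt*-/- and 21.9 to 27.6 (median 26.3) in GABA-treated *muMt*-/- libraries. All 6 libraries with GABA were above all *muMt*-/- and all WT libraries, and the log2 fold change to *muMt*-/- was 0.55 ± 0.26 (SE; adjusted p 0.999). *Cox5a* had 5.5 to 18.3 (median 13.7) in WT, 12.6 to 18.3 (median 13.6) in *muMt*-/- and 14.98 to 26.5 (median 22) in GABA-treated *muMt*-/- libraries, with 5 of 6 libraries with GABA above all *muMt*-/- and 5 above all WT libraries (0.61 ± 0.24 SE, adjusted p 0.999). *Ndufb6* (0.79 ± 0.36 SE, adjusted p 0.999) and *Ndufb3* (0.82 ± 0.41 SE, adjusted p 0.999) were the other 2. *Ndufb6* was at 0 to 9.62 (median 6.53) in WT, 2.02 to 8.18 (median 5.96) in *muMt*-/- and 3.12 to 13.01 (median 10.1) in GABA-treated *muMt*-/- libraries, with 5 of 6 libraries with GABA above all *muMt*-/- libraries. In complex II *Sdhb* (0.53 ± 0.30 SE, adjusted p 0.999) and *Sdhd* (0.44 ± 0.35 SE, adjusted p 0.999), in complex III *Uqcrq* (0.52 ± 0.28 SE, adjusted p 0.999) and *Uqcr10* (0.38 ± 0.36 SE, adjusted p 0.999), and in complex V *Atp5g1* (0.57 ± 0.32 SE, adjusted p 0.999) and *Atp5h* (0.38 ± 0.27 SE, adjusted p 0.999) had the smallest unadjusted p. Complex IV as a whole had a median of 0.02, the lowest of the 5 complexes, and -0.03 with either of the other scalings.

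Between GABA-treated *muMt*-/- and WT CD8+ T cells, 9 OXPHOS genes were higher at an unadjusted p under 0.05 (12%) and 0 lower, against 5.99 percent of all genes higher. DESeq2 called 1 gene in all, 0 of them OXPHOS. At an unadjusted p it gave 4 of 75 OXPHOS genes beside 222 of all 6663 genes. The median was 0.31 beside 0.21 for all genes, but 0.0437 beside 0.0397 with depth as a covariate. The smallest unadjusted p were those of *Cox5a* (0.87 ± 0.26 SE, adjusted p 0.458), *Cox4i1* (0.91 ± 0.27 SE, adjusted p 0.458) and *Ndufc1* (1.31 ± 0.43 SE, adjusted p 0.458). The other 6 were *Cox6a1*, *Ndufa3*, *Uqcrb*, *Atp5g3*, *Atp5g1* and *Ndufb9*.

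Depth and macrophage RNA moved with the CD8+ groups. Macrophage markers had 6 to 111 (median 12.5) in WT, 54 to 409 (median 116) in *muMt*-/- and 24 to 356 (median 152) in GABA-treated *muMt*-/- libraries, in molecules per library. WT libraries were the lowest in median, and replicate 1 of the *muMt*-/- group (409) and of the GABA group (356) the highest of their groups. Of 13 tested macrophage markers 11 were higher in *muMt*-/- than in WT CD8+ libraries at an unadjusted p under 0.05, with a median of 2.08. The median depth was 42066 molecules in WT, 67122 in *muMt*-/- and 80283 with GABA. The medians with depth as a covariate are given above. Since depth moved with the groups, its part cannot be told apart from that of the groups. The part of macrophage RNA in the OXPHOS values was not tested.

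Whether the change in TAMs differed from that in CD8+ T cells was tested by the interaction. For *muMt*-/- against WT 0 of 75 OXPHOS genes passed, against 0.0118 percent of all genes (1 of 8477). At an unadjusted p under 0.05, 17 were lower in TAMs relative to CD8+ T cells (22.7%) and 0 higher, against 8.32 percent of all genes lower. DESeq2 gave 9 genes at an adjusted p, 0 of them OXPHOS. At an unadjusted p it gave 8 of 75 OXPHOS genes beside 600 of all 8477 genes. The median was -0.58 beside -0.30 for all genes, and -0.37 beside -0.11 with DESeq2 size factors. With depth as a covariate these were -0.21 and -0.17. Relative to all genes, complexes I (-0.56), IV (-0.55) and V (-0.63) were lower, and complexes II (-0.14, but 0.05 with DESeq2 size factors) and III (-0.22) were not. *Ndufa3* (-1.41 ± 0.37 SE, adjusted p 0.156) and *Cox5b* (-1.44 ± 0.39 SE, adjusted p 0.188) had the smallest unadjusted p, and without the filter on low counts both were called. For GABA against placebo 0 OXPHOS genes and 0 of all genes passed in edgeR (0.0 percent) and in DESeq2. At an unadjusted p under 0.05 it was 1 of 75 (1.33%), *Atp5j*, against 2.58 percent of all genes higher, with a median of 0.09 beside 0.01. In DESeq2 it was 1 of 75, beside 361 of all 8477 genes. So for single OXPHOS genes a difference between the cell types in response to either condition was not detected at this depth, apart from the calls without the filter.

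Compared directly in WT mice, TAMs and CD8+ T cells had 11 of 75 OXPHOS genes called in edgeR (14.7%), 10 higher and 1 lower in TAMs, against 22.7 percent of all 8477 genes. The share was below the background. The median log2 difference was 0.37, beside 0.36 for all genes, so that relative to all genes 40 OXPHOS genes were higher and 35 lower. With log2 total molecules as a covariate the median was -0.25, beside 0.09 for all genes, and the 11 calls became 0. With DESeq2 size factors both medians were 0.20, and with total molecules both were 0.04, and the calls fell to 5 and 3. With total molecules the medians of complexes III and V turned negative, from 0.22 to -0.10 and from 0.31 to -0.03. In complex I *Ndufc1*, on a scale over all 36 libraries, had 13.7 to 21.8 (median 16.02) in WT TAMs and 0 to 11.3 (median 4.69) in WT CD8+ T cells. These ranges did not overlap, and the log2 difference was 1.72 ± 0.36 (SE; adjusted p 0.000179). *Ndufa4*, named for complex I and later found in complex IV, had 4.49 to 13.7 (median 8.53) in WT TAMs and 8.26 to 30.2 (median 18.6) in WT CD8+ T cells, higher in CD8+ T cells in median (-0.95 ± 0.34 SE, adjusted p 0.0338). In complex III *Uqcrb* had 16.99 to 25.6 (median 22.4) in WT TAMs and 6.39 to 20.6 (median 17.2) in WT CD8+ T cells and a log2 difference of 0.64 ± 0.24 (SE; adjusted p 0.0417). *Uqcrh* was lower in TAMs in value (-0.43 ± 0.22 SE, adjusted p 0.170), and with total molecules it was one of the 3 called, with *Ndufc1* and *Ndufa4*. In complex IV, with 6 called, *Cox7a2* had 33.98 to 51.4 (median 42.2) in WT TAMs and 15.97 to 32.6 (median 23.4) in WT CD8+ T cells and 0.88 ± 0.25 (SE; adjusted p 0.00501). Complexes II and V had 0 calls in edgeR, with 0 and 3 genes at an unadjusted p under 0.05.

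This count also moved with single libraries. The calls among all genes in these fits are not given here, so whether they moved alike was not tested. There were 17 calls without CD8+ WT replicate 6, and 4 without CD8+ WT replicate 1 or 2, TAM WT replicate 2, 5 or 6 or TAM *muMt*-/- replicate 3. There were 5 without CD8+ WT replicate 3, TAM WT replicate 4 or TAM GABA replicate 4, and 6 without TAM WT replicate 3, TAM *muMt*-/- replicate 4 or 5 or TAM GABA replicate 2 or 3. There were 7 without CD8+ WT replicate 5, CD8+ *muMt*-/- replicate 1 or 4, CD8+ GABA replicate 6 or TAM GABA replicate 1.

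Genes that build, feed or regulate the complexes were looked at in lists of their own. In TAMs of *muMt*-/- against WT mice, 4 subunits and carriers outside the naming rule had a median of -0.58 and 0 calls in edgeR, 3 being lower at an unadjusted p under 0.05. Among 41 tested assembly factors, which build the complexes but do not stay in them, 0 were called and 4 were lower at an unadjusted p (9.76%, against 8.15 percent of all genes), with a median of -0.21. Of 13 genes of the TCA cycle 1 fell, fumarate hydratase *Fh1* (-1.27 ± 0.34, adjusted p 0.0363), and the median was -0.12. Of 11 regulators of mitochondrial biogenesis 0 were called, 0 at an unadjusted p, and the median was 0.12. Among 15 genes of glycolysis 0 were called, with 3 lower (20%) and 2 higher at an unadjusted p and a median of -0.01. Mitochondrial ribosomal proteins, which translate the subunits encoded in mitochondria, had 0 of 78 called, 13 lower at an unadjusted p (16.7%) and a median of -0.31. Cytosolic ribosomal proteins had 29 of 85 called lower (34.1%, against 1.02 percent of all genes) and a median of -0.47. Whether the lists differed from one another was not tested.

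With GABA in *muMt*-/- TAMs, 0 genes of these lists were called in edgeR. Cytosolic ribosomal proteins had 53 of 85 higher at an unadjusted p under 0.05 (62.4%, against 5.15 percent of all genes) and a median of 0.34, mitochondrial ribosomal proteins 7 of 78 (8.97%) and 0.22, and assembly factors 1 of 41 (2.44%) and 0.27. Medians were 0.17 for the TCA cycle, 0.11 for glycolysis and 0.19 for the regulators. In CD8+ T cells of *muMt*-/- against WT mice these lists had 0 calls, and their medians were -0.17 for assembly factors, 0.05 for the TCA cycle, 0.21 for the regulators, 0.32 for glycolysis, 0.07 for mitochondrial and -0.06 for cytosolic ribosomal proteins, beside 0.15 for all genes.

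OXPHOS genes are known to share short promoter motifs, so the promoters were searched in the RefSeq table (GRCm38.p6, 250 bases before to 50 after each start), which holds 66 of the 84 genes. The search was for 3 motifs on both strands: the NRF1-type GCGCATGC (other strand GCATGCGC), the ETS-type CCGGAAGT (ACTTCCGG) and the YY1-type AAGATGGC (GCCATCTT). The NRF1-type motif was in 10 of the 66 (15.2%), against 3.05 percent of 27025 genes with a promoter. The ETS-type motif was in 5 (7.58%), against 4.31 percent, and the YY1-type in 9 (13.6%), against 3.19 percent. Of the 9 genes called in TAMs, 7 had a promoter in the table and 2 had a motif (28.6%), the promoters of *Atp5g2* and *Ndufa3*, against 34.8 percent of the 66 OXPHOS genes and 9.91 percent of all genes with any of the 3. The motif is shown in capitals in these 2 and, as the largest fall, the promoter of *Cox5b* is shown, in which none of the 3 was found. The *Atp5g2* promoter (chr15:102670998-102671297, minus strand) holds the NRF1-type motif on both strands in overlap, the *Ndufa3* promoter (chr7:3617123-3617422, plus strand) the YY1-type motif, and the *Cox5b* promoter lies at chr1:36691237-36691536, plus strand. A match of letters is a description and not a binding site.
Atp5g2: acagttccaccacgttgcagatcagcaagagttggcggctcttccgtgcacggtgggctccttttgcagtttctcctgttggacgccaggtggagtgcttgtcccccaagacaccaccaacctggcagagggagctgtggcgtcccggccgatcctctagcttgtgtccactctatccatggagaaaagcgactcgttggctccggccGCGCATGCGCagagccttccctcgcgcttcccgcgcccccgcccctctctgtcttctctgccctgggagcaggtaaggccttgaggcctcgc
Ndufa3: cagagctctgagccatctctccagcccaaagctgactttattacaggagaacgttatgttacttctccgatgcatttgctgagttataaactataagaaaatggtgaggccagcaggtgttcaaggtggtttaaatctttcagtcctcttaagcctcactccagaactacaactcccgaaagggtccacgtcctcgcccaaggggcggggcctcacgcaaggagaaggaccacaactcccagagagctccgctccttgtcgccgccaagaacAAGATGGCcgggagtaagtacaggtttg
Cox5b: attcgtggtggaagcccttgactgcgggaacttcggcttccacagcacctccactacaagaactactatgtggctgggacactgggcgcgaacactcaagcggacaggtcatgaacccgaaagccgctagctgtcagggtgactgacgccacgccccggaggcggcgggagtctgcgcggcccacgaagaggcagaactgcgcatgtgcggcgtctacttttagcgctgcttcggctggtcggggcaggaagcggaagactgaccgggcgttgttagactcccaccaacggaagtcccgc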

How the data were processed

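The table of molecule counts deposited by the authors (reads placed with STAR on mm10 and assigned to refFlat genes) was used as it is, all 36 libraries, without ERCC or mitochondrial genes in it. Each cell type was fitted on its 18 libraries with edgeR 4.0.16 (TMM scaling, quasi-likelihood tests; limma 3.58.1, R 4.3.3), and all 36 for TAMs beside CD8+ T cells. Adjusted p values are Benjamini-Hochberg over all genes tested, threshold 0.05, and SE is the absolute log2 fold change over the root of F. Library sizes were taken from the genes tested, a choice made after seeing 194 genes called, against 195 with sizes from all genes. DESeq2 1.42.0, other scalings, filters and designs and each library left out in turn were run as alternatives, and sizes from all genes and fits without the libraries lowest in OXPHOS share were added after seeing the data. The biological coefficient of variation was 0.195 for TAMs and 0.294 for CD8+ T cells. The scripts were tested on simulated data. Genes named singly are those called within a cell type, per complex and cell type the 2 with the smallest p (*muMt*-/- against WT, GABA against placebo), highest and lowest level, isoforms, *Atp5d*, *Atp5g2*, *Ndufb2* and *Uqcrb*, and the largest rise and fall called per complex between the cell types. Members and lists (assembly factors, TCA cycle, glycolysis, regulators of mitochondrial biogenesis, ribosomal proteins, nuclear RNA, markers) were chosen with earlier results of these data known. Lengths are of the longest protein-coding transcript in GENCODE M21. Tables and figures used Python 3.11.15, numpy 2.4.6, pandas 2.3.3 and matplotlib 3.10.9.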

Additional observations from a re-analysis of the deposited data

Results flagged for a closer look

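In 9 of 63 groups of 6 libraries 1 library stood apart, with a gap to its nearest neighbour of most of the range of the group, and chance alone marks about 1 in 20 groups. Replicate 1 of CD8+ T cells from *muMt*-/- mice with placebo was the lowest of its group in the share of all 84 OXPHOS genes (1.12 percent of molecules, next 1.53). In the same library the share was 0.110 for complex III, 0.294 for complex IV and 0.349 for complex V, each the lowest of its group. Replicate 4 of TAMs from *muMt*-/- mice with placebo was the lowest of its group for complex III (0.0955 percent). For single genes, in normalized molecules, *Atp5g2* was 57.4 in replicate 4 of WT TAMs, the lowest of its group. *Ndufa3* was 19.9 in replicate 1 of TAMs with GABA, the lowest. *Uqcr10* was 29.5 in replicate 6 of *muMt*-/- TAMs with placebo, the highest. *Uqcrq* was 16.7 in replicate 4 of the same group, the lowest.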

How the results depend on the processing

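No result changed direction while being called. OXPHOS genes called between *muMt*-/- and WT TAMs numbered 9, all lower, and 27 at an unadjusted p in DESeq2 (1 higher), 14 with filterByExpr (*Uqcrb* higher, the others lower), 15 without a filter, 15 in a fit of only the 12 libraries, 0 with depth as a covariate, 8 without the *muMt*-/- and GABA libraries lowest in OXPHOS share, and 1 to 16 with 1 library left out. *Cox5b* kept its call in all of these but the fit with depth, and its adjusted p ran from 6.81e-06 to 0.267 over them. The calls over all genes numbered 194 of 9469 in the main fit and 295 of 3853 with filterByExpr. They numbered 343 of 14986 without a filter and 323 of 9399 in the fit of only the 12 libraries. Between GABA and placebo in *muMt*-/- TAMs 0 became 1 in DESeq2 (6 at an unadjusted p), and 0 to 1 with 1 library left out. At an unadjusted p in DESeq2 there were 5 between GABA and WT TAMs, 2 and 4 in CD8+ T cells with GABA against placebo and against WT, and 8 and 1 in the interactions for *muMt*-/- and for GABA. Without a filter the interaction for *muMt*-/- gave 2. Between WT TAMs and CD8+ T cells 11 became 5 with DESeq2 size factors, 3 with total molecules, 5 in DESeq2, 5 with filterByExpr, 0 with depth as a covariate, and 4 to 17 with 1 library left out.

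The median of the OXPHOS genes moved by more than the spread of replicates in these cases. With depth as a covariate it was -0.22 between *muMt*-/- and WT TAMs, 0.0224 between *muMt*-/- and WT and 0.0437 between GABA and WT in CD8+ T cells, -0.25 between WT TAMs and CD8+ T cells and -0.21 in the interaction for *muMt*-/-. With filterByExpr it was 0.11 between GABA and WT in CD8+ T cells, 0.0817 between WT TAMs and CD8+ T cells and -0.39 in the interaction. With DESeq2 size factors and in DESeq2 it was 0.20 between the cell types and -0.37 in the interaction, and with total molecules 0.0408 between the cell types. The cause was not tested. Of all values recomputed, 787 stayed the same, 79 lost a call and 61 moved.

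With the replicate number as a block, 9 OXPHOS genes were called between *muMt*-/- and WT TAMs and 12 between WT TAMs and CD8+ T cells (10 with a block within each cell type). Libraries of the same number did not deviate together, with median correlations from -0.0352 to 0.0722 between groups and at most 2 of 6 pairs over 0.1, and at most 2 of 6 libraries correlated best with their own number. With 100 cells and, in CD8+ T cells, down to 22896 molecules per library, genes of few molecules were tested with low precision, and an absent call is not an absent difference.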
